A study of Mus musculus with 3 samples.

Results

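The 6 actin genes of the mouse and 3 genes that mark smooth muscle, Tagln, Myh11 and Cnn1, were followed through RNA of the heart ventricle at 3 stages. The 9 genes were chosen by name, as the loci of the deposited transcript annotation that carry these gene symbols, and each symbol had exactly 1 locus among the 48626 loci of the expression table. All 3 libraries came from the ventricle of mice labelled C57BL/6 (C57BL/6 J in the methods of the study), from embryos at the stages E10.5 and E13.5 (days of gestation) and from adults of 8 weeks. They were made with a stranded kit for total RNA and sequenced in pairs, 1 library per stage. How many animals went into each library was not given in the sources used here. Because a stage has only 1 library, differences between stages cannot be checked against replicates, and p-values are not given.

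Actins are the building blocks of thin filaments. Mammals have 4 muscle isoforms (the cardiac Actc1, the skeletal Acta1, the vascular smooth muscle Acta2 and the enteric smooth muscle Actg2) and a pair of cytoplasmic isoforms, Actb and Actg1, found in nearly every cell. The early heart tube is known to carry smooth muscle actin and transgelin in its cardiomyocytes before the cardiac isoforms take over, whereas later these genes mark the wall of coronary vessels. Tagln (transgelin, or SM22) and Cnn1 (calponin) bind actin filaments, and Myh11 is the myosin heavy chain of mature smooth muscle. The serum response factor, with its partner myocardin, binds a short element called the CArG box in the promoters of many of these genes.

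The coding sequences of the 6 actins were closely alike, which matters for reads shared between them. Between pairs, 82.1% (Acta2 and Actg1) to 88.7% (Actb and Actg1) of aligned coding bases were identical, and Actc1 shared 86.2% with Acta1 and 83.0% with Acta2. The coding sequences had 1134 bases in Actc1, Acta1 and Acta2, 1131 in Actg2 and 1128 in Actb and Actg1. Their last 60 coding bases, stop codon included, are shown from the GRCm38 genome to make this visible, with capitals where a base differs from Actc1.
Actc1 (chr2:114047466-114047525, minus strand): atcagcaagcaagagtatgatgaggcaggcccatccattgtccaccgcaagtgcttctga
Acta1 (chr8:123892009-123892068, minus strand): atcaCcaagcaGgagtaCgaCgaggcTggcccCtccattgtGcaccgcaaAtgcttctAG
Acta2 (chr19:34241667-34241726, minus strand): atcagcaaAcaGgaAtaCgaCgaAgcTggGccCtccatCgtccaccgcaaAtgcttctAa
Actg2 (chr6:83512985-83513044, minus strand): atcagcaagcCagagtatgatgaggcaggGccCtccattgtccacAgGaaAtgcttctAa
Actb (chr5:142903798-142903857, minus strand): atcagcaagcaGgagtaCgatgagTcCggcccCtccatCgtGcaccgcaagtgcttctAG
Actg1 (chr11:120346390-120346449, minus strand): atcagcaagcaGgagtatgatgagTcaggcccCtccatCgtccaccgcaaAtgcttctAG
In this stretch Acta2 differed from Actc1 at 12 positions, Acta1 at 10, Actb at 9, and Actg2 and Actg1 at 7 each.

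Every stretch of 100 bases (the read length of the study) of each RefSeq transcript was searched for exact copies. The search covered the GRCm38 chromosomes and GENCODE M21 transcripts of other genes. Copies with mismatches were not sought, so a stretch without an exact copy may still resemble another place. For Acta1, Acta2, Actc1, Actg2, Myh11 and Cnn1 no stretch had a copy elsewhere, and no stretch was shared between any of the 9 genes. For Actb, 20 of 1790 stretches (1.12%) had a copy, in a part of the genome where the deposited annotation has Lrrc58. For Tagln, 32.8% of the stretches lay also in Gm48529, a gene that overlaps Tagln itself, and none lay elsewhere in the genome. The search took both strands together, so it does not give the strand of Gm48529. Actg1 was the exception, with 1710 of 1795 stretches (95.3%) present in 9 other regions of the genome. One of these, on chromosome 4, held 1489 of the stretches (83.0%). There the deposited annotation has an unnamed locus of 1 exon and 2040 nt (chromosome 4, 103563212 to 103565251, plus strand), where GENCODE lists the processed pseudogene Gm12715. That locus was at 137 FPKM (fragments scaled by transcript length and by library size) at E10.5, then 169 at E13.5 and 26.9 in adult ventricle, beside 89.1, 94.1 and 27.2 FPKM for the Actg1 locus. How fragments that fit both places were divided is not stated, so the level of Actg1 is uncertain.

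**Figure D1:**
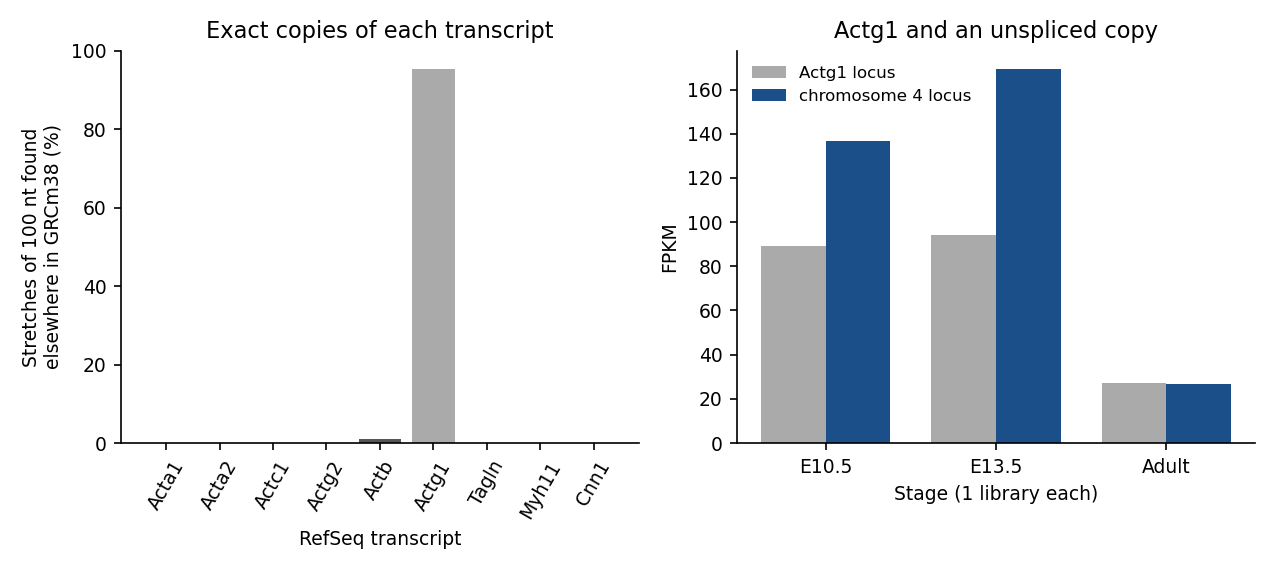
Left, the percent of 100-base stretches of each member's RefSeq transcript with an exact copy elsewhere in GRCm38, where Actg1 stands at 95.3% and Actb at 1.12%, with the others at 0. Right, FPKM of the Actg1 locus and of the unnamed chromosome 4 locus in each library; bars start at 0 and are single values, and the chromosome 4 locus is above Actg1 in both embryonic libraries.

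Promoter sequences of RefSeq (build GRCm38.p6) were at hand for 5 of the 9 genes, Acta1, Acta2, Actc1, Actg1 and Cnn1, and those of Actg2, Actb, Tagln and Myh11 were not in the table. The 190 bases before the start site of the table are shown, because the muscle actins are textbook targets of the serum response factor. Capitals mark CArG boxes, either complete or with 1 of their 6 inner bases being neither A nor T.
Acta1 (chr8:123894776-123894965, minus strand): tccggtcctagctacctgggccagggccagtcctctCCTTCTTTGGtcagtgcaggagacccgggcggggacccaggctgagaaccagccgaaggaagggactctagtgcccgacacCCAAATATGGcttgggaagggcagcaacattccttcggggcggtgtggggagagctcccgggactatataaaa
Acta2 (chr19:34255374-34255563, minus strand): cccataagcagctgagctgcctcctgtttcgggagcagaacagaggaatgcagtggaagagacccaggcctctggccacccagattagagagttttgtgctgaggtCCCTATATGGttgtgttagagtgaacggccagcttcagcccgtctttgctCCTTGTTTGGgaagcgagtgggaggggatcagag
Actc1 (chr2:114052876-114053065, minus strand): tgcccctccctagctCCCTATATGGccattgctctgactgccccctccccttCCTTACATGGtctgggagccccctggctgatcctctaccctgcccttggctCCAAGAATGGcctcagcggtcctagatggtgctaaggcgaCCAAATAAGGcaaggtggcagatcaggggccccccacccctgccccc
Actg1 (chr11:120348496-120348685, minus strand): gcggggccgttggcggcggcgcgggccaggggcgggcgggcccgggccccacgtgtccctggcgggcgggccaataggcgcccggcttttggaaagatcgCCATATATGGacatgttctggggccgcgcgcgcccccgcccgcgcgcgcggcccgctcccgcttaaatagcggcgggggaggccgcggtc
Cnn1 (chr9:22099063-22099252, plus strand): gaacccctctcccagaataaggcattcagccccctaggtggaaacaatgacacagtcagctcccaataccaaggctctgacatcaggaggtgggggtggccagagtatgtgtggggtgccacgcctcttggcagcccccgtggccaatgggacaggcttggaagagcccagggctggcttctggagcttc
A complete CArG box lay within the 300 bases searched around the start in Acta1, Actc1 and Actg1, at 112, 111 and 101 bases before the 5′ end of the deposited RefSeq transcript. Acta2 had none but held 2 boxes with 1 inner mismatch, 121 and 71 bases before its deposited 5′ end. Actc1 held 3 such boxes beside its complete one, and Acta1 held 2, of which 1 lies upstream of the stretch shown. Cnn1 had neither form in this window. The complete box reads the same on both strands as a motif and was found in 1.63% of the 32851 promoters of the table, and the form with 1 mismatch in 8.5%. The letters TATAAA, searched on both strands, were present in Acta1 and Actc1 and in 13.6% of all promoters. The letters CATTCC, searched likewise, were present in Acta1 and Acta2 and in 14.7% of all promoters. These matches are descriptions of sequence only.

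The FPKM scale is not centred alike at each stage. Across the 12569 mRNA loci that reached 1 FPKM in some library, the median difference of log2(FPKM + 1) was 0.17 from E10.5 to E13.5, -0.50 from E13.5 to the adult and -0.40 from E10.5 to the adult. A gene was called higher or lower when this difference was 2 or more in size. From E10.5 to E13.5, 0.851% of these loci were called higher and 0.247% lower (107 and 31 loci, or 89 and 49 with median-of-ratios scaling and 79 and 80 with equal mRNA sums). From E13.5 to the adult, 4.41% had a higher call and 9.88% a lower one (554 and 1242 loci, or 900 and 775 with median-of-ratios scaling and 707 and 906 with equal mRNA sums). From E10.5 to the adult, 5.59% were called higher and 8.1% lower (703 and 1018 loci, or 994 and 767 with median-of-ratios scaling). As a check for heart muscle, 8 cardiomyocyte markers summed to 11245, 18563 and 19853 FPKM in the order of the stages, with none at 0. Most of each sum was Myl2 (7790, 12217 and 11568 FPKM). This check does not tell ventricle from other parts of the heart.

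Among the 9 members, 1 was called higher and none lower from E10.5 to E13.5, beside 0.851% and 0.247% of all mRNA loci. From E13.5 to the adult, 1 was called higher and 3 were called lower, beside 4.41% and 9.88%. Between E10.5 and the adult, 1 was called higher and 2 lower, beside 5.59% and 8.1%. The median difference of the members was 0.44, -1.76 and -1.33 in these comparisons, where all mRNA loci had 0.17, -0.50 and -0.40. The genes called higher were Actg2 in the first comparison and Myh11 in both comparisons with the adult. Acta2 and Cnn1 were called lower in both comparisons with the adult, and Tagln only in that with E13.5. The 3 comparisons use the same 3 libraries and are not independent of each other.

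**Figure D2:**
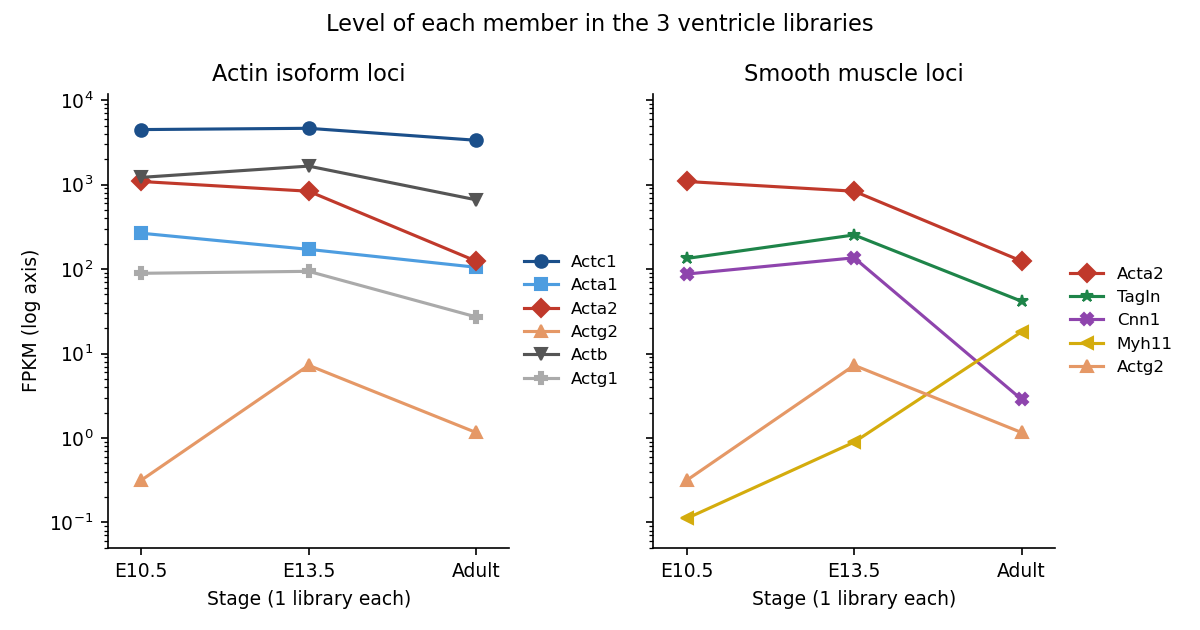
FPKM (log axis) of the 6 actin loci (left) and of the smooth muscle loci (right) at each stage, 1 point per library. Actc1 is the top line in all libraries, Acta2, Tagln and Cnn1 are lowest in the adult, and Myh11 is highest there.

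Actc1, the cardiac actin of the sarcomere, was the highest member in every library. It was at 4487 FPKM at E10.5, then 4646 at E13.5 and 3353 in adult ventricle (chromosome 2, 114047289 to 114052811, 7 exons, 1390 nt). It stood 2nd, 4th and 7th among the 12569 mRNA loci. Its differences of 0.05, -0.47 and -0.42 for E13.5 minus E10.5, adult minus E13.5 and adult minus E10.5 lay close to the medians of all loci. Their sign is not to be read, since the first turned to -0.11 and the second to 0.10 with median-of-ratios scaling. The 3 loci with the most similar pair of stage differences, among 7339 loci compared over these 3 libraries, were Map2k4, Trim24 and Mettl9, at distances of 0.02, 0.02 and 0.03 log2 units.

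Acta1, the actin of adult skeletal muscle, which the fetal heart also makes, was at 266, 171 and 105 FPKM from E10.5 to the adult (chromosome 8, 123891767 to 123894736, 7 exons, 1433 nt). The adult level was 2.53-fold below that of E10.5, a difference of -1.33 that was not called. Actc1 exceeded Acta1 16.9-fold at E10.5, then 27.1-fold at E13.5 and 31.9-fold in adult ventricle. Because Acta1 also marks skeletal muscle, 7 fast skeletal muscle markers were read beside it. Their summed level was 51.7, 63.4 and 3.64 FPKM, most of it from Tnni2 (17.5, 51.0 and 1.52) and Mylpf (29.9, 8.69 and 1.46). Both were called lower from E10.5 to the adult, and Tnni2 also from E13.5. The myosins Myh1, Myh2 and Myh4, which define these fibres in adult muscle, were at 0.09 FPKM or less in every library. Myh2 was listed at 0 at E13.5, as was Tnnc2 at E10.5. Being myosins of adult fibres, the 3 say little about skeletal muscle in the embryonic libraries. The loci most like Acta1 were Arf3, Ube2d2 and Ppp1r15b, at 0.06 to 0.07 log2 units.

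Acta2, the smooth muscle actin, was at 1089.5 FPKM at E10.5, then 836 at E13.5 and 124 in adult ventricle (chromosome 19, 34241091 to 34255525, 9 exons and 1780 nt in the RefSeq transcript). At E10.5 it stood 19th among the mRNA loci, 1.12-fold below Actb and 4.10-fold above Acta1. In the adult it was 339th and only 1.18-fold above Acta1. The adult level was 8.75-fold below E10.5 and 6.71-fold below E13.5, with differences of -3.12 and -2.74, both called. From E10.5 to E13.5 the difference was -0.38. Over all mRNA loci, 2.84% had a lower difference between E10.5 and the adult than Acta2. The most similar loci were Ercc6l, Brca1 and Nudt5, at 0.05 to 0.07 log2 units, of which the first acts in chromosome segregation and the second in DNA repair. In bulk RNA, fewer cells of a type and less RNA per cell cannot be told apart, and this holds for every member.

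Actg2, the actin of enteric smooth muscle, was the lowest actin in every library. It was at 0.316 FPKM at E10.5, then 7.25 at E13.5 and 1.16 in adult ventricle (chromosome 6, 83512909 to 83536251, 9 exons in the RefSeq transcript). The difference of 2.65 from E10.5 to E13.5 was called, and 0.38% of mRNA loci had a higher one. From E13.5 to the adult the difference was -1.93, short of the limit, and with a pseudocount of 0.1 it was -2.54 and was called. By the depth estimated from the lowest steps of the table, the E10.5 and adult values rest on about 6 and 25 fragments, against about 246 at E13.5. With a pseudocount of 5 the first difference was 1.204 and was not called.

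Both cytoplasmic actins were highest at E13.5 and lowest in the adult, with differences between the embryonic stages of 0.44 for Actb and 0.08 for Actg1, the latter turning to -0.08 with median-of-ratios scaling. Actb was at 1218, 1657 and 661 FPKM (chromosome 5, 142896112 to 142906737), the 16th, 18th and 45th mRNA locus. It was 2.51-fold lower in the adult than at E13.5, with a difference of -1.32 that was not called. The deposited Actb locus holds assembled transcripts of up to 8956 nt that run 7004 bp past the RefSeq 3′ end, where the RefSeq transcript has 1889 nt, and how they enter the locus value is not stated. Actg1 was at 89.1, 94.1 and 27.2 FPKM (chromosome 11, 120343795 to 120348484), 3.46-fold lower in the adult than at E13.5 and not called. With the chromosome 4 locus added it was at 226, 263 and 54.1 FPKM, and the difference from E13.5 to the adult was then -2.26 in place of -1.76, past the limit. The ratio of Actb to Actg1 was 13.7, 17.6 and 24.4, or 5.39, 6.30 and 12.2 with the chromosome 4 locus counted to Actg1.

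As shares of the summed actin FPKM, which do not depend on the scaling between libraries, Actc1 made up 62.8% at E10.5, a similar 62.7% at E13.5 and 78.5% in adult ventricle. Acta2 made up 15.2%, 11.3% and 2.91%. Actb held 17.0%, 22.4% and 15.5%, and Acta1 held 3.72%, 2.31% and 2.46%. Actg1 was at 1.27% or less, or at 3.10%, 3.47% and 1.26% with the chromosome 4 locus counted to it, and Actg2 at 0.0978% or less. Within the 4 muscle actins alone, the share of Actc1 was 76.8%, 82.1% and 93.6%, while that of Acta2 was 18.6%, 14.8% and 3.47%. The 6 actins together were at 7150.0, 7411 and 4273 FPKM, or 2.10%, 1.71% and 1.29% of the FPKM of all mRNA loci. The shares rest on locus values that weight each gene per length. With FPKM multiplied by exon length instead, Actc1 made up 27.1%, 24.96% and 40.7%, and Actb, with its long assembled transcripts, 47.5%, 57.5% and 51.9%, above Actc1 in every library. The table holds no counts per locus, so these shares carry no interval.

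**Figure D3:**
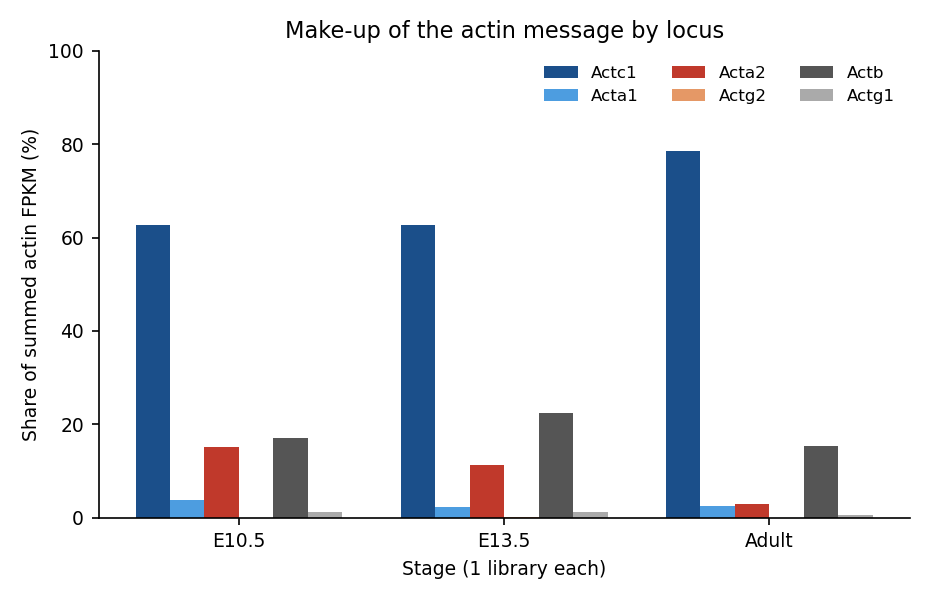
Share of each actin locus in the summed FPKM of the 6 actin loci (percent, bars from 0) in each library, single values without error. The Acta2 bar goes from 15.2% at E10.5 to 2.91% in the adult, and the Actc1 bar from 62.8% to 78.5%.

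Of the smooth muscle genes, Tagln was at 134 FPKM at E10.5, then 254 at E13.5 and 41.6 in adult ventricle (chromosome 9, 45929628 to 45936058, 5 exons, 1586 nt). It was 1.90-fold higher at E13.5 than at E10.5, a difference of 0.92 that was not called. It was 6.09-fold lower in the adult than at E13.5, a difference of -2.58 that was called, and 3.21-fold lower than at E10.5. On the other strand its 3′ part overlaps Pcsk7 by 3065 bp, at 6.45, 7.46 and 4.81 FPKM in the 3 libraries. Acta2 exceeded Tagln 8.15-fold at E10.5, then 3.29-fold at E13.5 and 2.99-fold in adult ventricle. The most similar loci were Dact1, Lsm4 and Jub, at 0.09 to 0.11 log2 units.

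Cnn1 was far lower in the adult than in either embryonic library. It was at 87.3 FPKM at E10.5, then 136 at E13.5 and 2.87 in adult ventricle (chromosome 9, 22099146 to 22111142, plus strand, 7 exons). The adult level was 47.4-fold below E13.5 and 30.4-fold below E10.5, with differences of -5.15 and -4.51, both called. A share of 0.59% of mRNA loci had a lower difference from E13.5 to the adult. The adult value rests on about 93 fragments. Cnn1 lay 1.53-fold below Tagln at E10.5 and 14.5-fold below it in the adult.

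Myh11 was highest in the adult. It was at 0.112 FPKM at E10.5, then 0.893 at E13.5 and 18.1 in adult ventricle (chromosome 16, 14194527 to 14291408, 42 exons and 6632 nt in the RefSeq transcript). The adult level was 20.3-fold above E13.5, with a difference of 3.33, and the difference from E10.5 was 4.10, both called. Of all mRNA loci, 1.15% had a higher difference from E13.5 to the adult and 0.52% from E10.5. At E10.5 the value rests on about 10 fragments and at E13.5 on about 153, so the 162-fold ratio of adult to E10.5 is imprecise. With a pseudocount of 5 the difference from E13.5 was 1.97 and just missed the limit. With a pseudocount of 0.1 the difference of 0.77 from E10.5 to E13.5 became 2.23 and was called. Cnn1 stood 783-fold above Myh11 at E10.5 and 152-fold at E13.5, whereas in the adult Myh11 stood 6.30-fold above Cnn1. The loci most like Myh11 were Fabp3, Ephx2 and Ccl12, at 0.06, 0.17 and 0.26 log2 units.

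**Figure D4:**
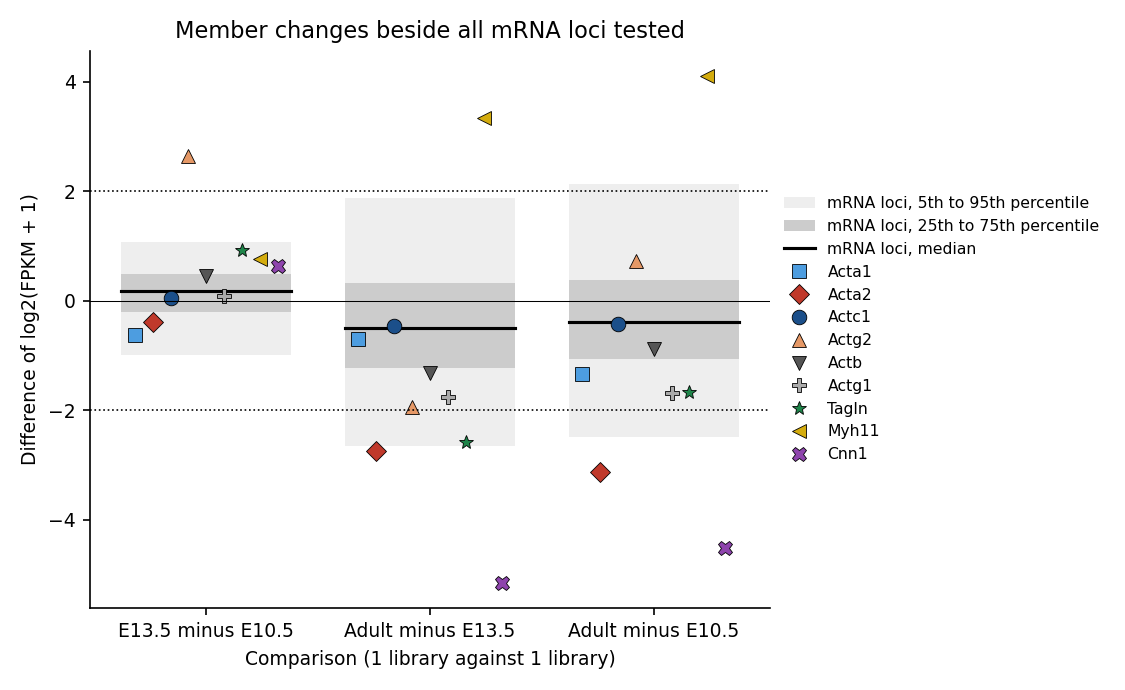
Difference of log2(FPKM + 1) for each member in the 3 comparisons, 1 library against 1 library, over the range of 12569 mRNA loci (light grey 5th to 95th percentile, dark grey 25th to 75th, black line median). Dotted lines mark the limit of 2, beyond which lie Actg2 in the first comparison, Myh11 above and Acta2, Tagln and Cnn1 below in the second, and Myh11 above and Acta2 and Cnn1 below in the third.

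The order of the members thus differed between the libraries. At E10.5 it was Actc1, Actb, Acta2, Acta1, Tagln, Actg1, Cnn1, Actg2 and Myh11. In that order Actb and Acta2 were 1.12-fold apart and Actg1 and Cnn1 1.02-fold, and without replicates such neighbours cannot be ranked. At E13.5 Tagln had passed Acta1 (1.48-fold), and Cnn1 stood above Actg1 (1.45-fold). With the chromosome 4 locus counted, Actg1 (226 and 263 FPKM) was instead above Cnn1 and Tagln at both embryonic stages, though near Tagln (254 FPKM) at E13.5. In the adult Myh11 stood 7th, below Actg1, and Cnn1 and Actg2 were last, 2.47-fold apart.

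Other smooth muscle genes were read from a list of 14, all of which reached 1 FPKM in some library. From E10.5 to E13.5 none was called in either direction, and the median difference was 0.64 against 0.17 for all mRNA loci. From E13.5 to the adult none was called higher and 3 lower, beside 4.41% and 9.88% of all mRNA loci, with a median of -1.03 against -0.50, and with median-of-ratios scaling 2 were called higher. From E10.5 to the adult 1 was called higher and 3 lower, beside 5.59% and 8.1% of all mRNA loci, with a median of -0.21 against -0.40. The 3 genes called lower were the same in both comparisons with the adult, except that with median-of-ratios scaling Csrp1 was at -1.77 for adult minus E10.5 and 2 were left: the light chain Myl9 (540, 822 and 35.7 FPKM), the LIM domain protein gene Csrp1 (171, 378 and 37.2) and the PDZ and LIM domain gene Pdlim7 (59.2, 105 and 7.60). The gene called higher was Mylk, the myosin light chain kinase of smooth muscle, at 1.08, 3.01 and 12.9 FPKM. Smtn and Ppp1r14a were picked after their values were seen. Smtn, which codes for smoothelin, was at 14.6, 8.25 and 21.9 FPKM, and the difference from E13.5 to the adult was 1.31. Ppp1r14a, an inhibitor of myosin phosphatase, was highest at E13.5 (1.43, 7.54 and 1.48 FPKM), as were most of the 14.

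The paralogs of Tagln and Cnn1 were lower in the adult too. All 4 (Cnn2, Cnn3, Tagln2 and Tagln3) were called lower from E13.5 to the adult, where 9.88% of all mRNA loci were. The median difference was -2.51, and 2 of the 4 were called with either alternative scaling. Cnn2 was at 153, 181 and 15.02 FPKM, Cnn3 at 107, 115 and 15.5, Tagln2 at 119, 183 and 39.3 and Tagln3 at 14.0, 7.10 and 0.747. From E10.5 to the adult 3 of the 4 were called lower, all but Tagln2, beside 8.1% of all loci. The nonmuscle myosin heavy chains split. Myh10 was called lower in the adult than at E13.5 (62.2, 76.0 and 4.38 FPKM), Myh14 was called higher (0.577, 0.133 and 6.26), and Myh9 differed by 0.29 (34.6, 21.6 and 26.5).

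Of 5 genes of the serum response factor axis, none was called in any comparison. Depending on comparison and direction, 0.247% to 9.88% of all mRNA loci were called, so no call among 5 genes says little about them. Their largest difference in size was 1.36, for Mkl2 from E13.5 to the adult. Srf itself was at 18.5, 32.8 and 14.3 FPKM. Myocd, which codes for myocardin, was at 29.4, 11.7 and 20.3 FPKM, lowest at E13.5, and Mkl2, a myocardin-related gene, was at 12.1, 4.56 and 13.3. Mkl1 was at 3.997, 2.28 and 1.45 FPKM, and Klf4 at 2.12, 2.65 and 4.97.

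Among 20 genes that turn over actin filaments or cap their ends, 1 was called higher in the adult than at E13.5 and 4 were called lower, beside 4.41% and 9.88% of all mRNA loci. The median was -0.53 against -0.50, and with median-of-ratios scaling it was 2 higher and 1 lower. None was called from E10.5 to E13.5, and from E10.5 to the adult 3 were called higher and 2 lower, beside 5.59% and 8.1%. Those called lower from E13.5 to the adult were Cfl1, the nonmuscle cofilin (344, 534 and 94.4 FPKM), Dstn, which codes for destrin (664, 924 and 158), and the thymosins Tmsb4x (637, 1622 and 349) and Tmsb10 (46.5, 52.4 and 1.27). Cfl2, the muscle cofilin, named here after its values were seen, was at 94.2, 157 and 165 FPKM. Those called higher between E10.5 and the adult were Lmod2 and Lmod3, the leiomodins that nucleate thin filaments in striated muscle (14.6, 21.8 and 115, and 3.68, 9.99 and 20.2 FPKM), and Gsn, which codes for the severing protein gelsolin (36.8, 92.8 and 222).

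**Figure D5:**
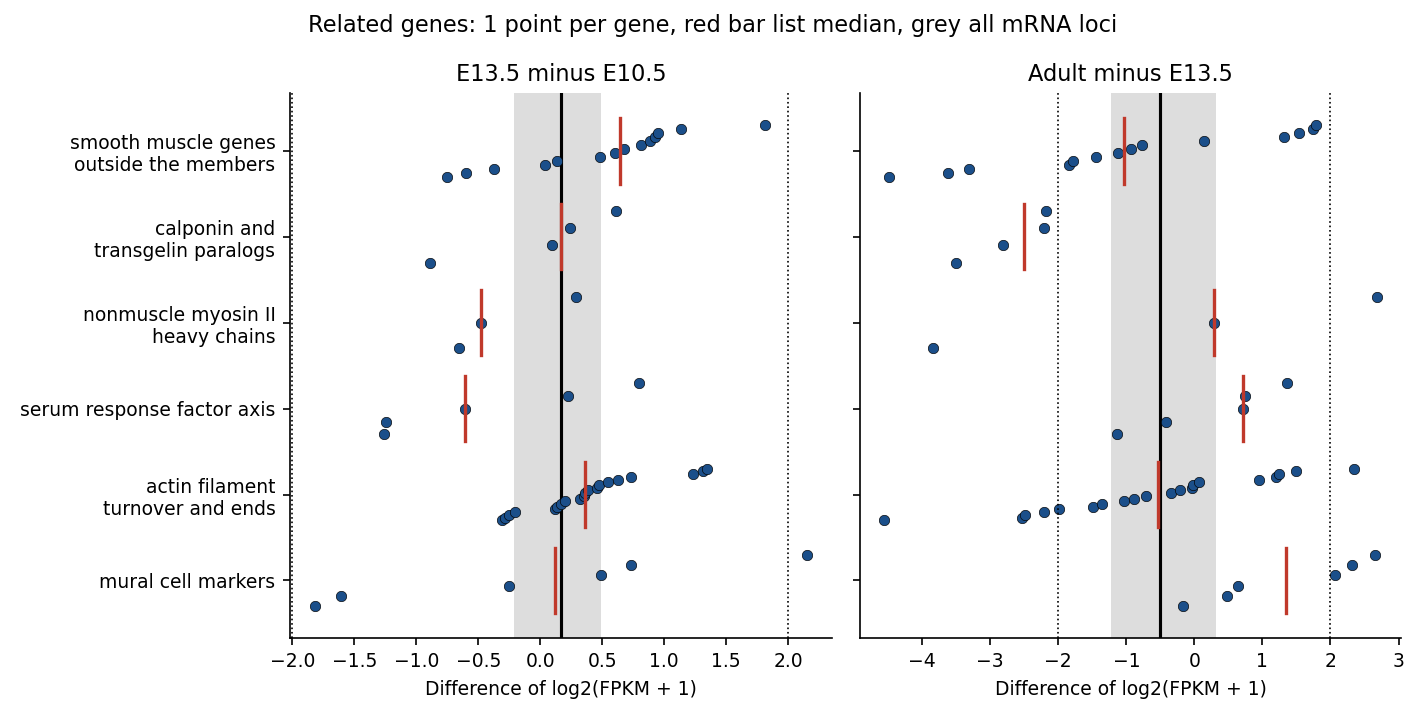
Difference of log2(FPKM + 1) for each gene of 5 related lists and of the mural cell markers, from E10.5 to E13.5 (left) and from E13.5 to the adult (right), 1 point per gene and single libraries. Red bars are list medians, the black line and grey band are the median and the 25th to 75th percentile of all mRNA loci, dotted lines mark the limit of 2, and all 4 calponin and transgelin paralogs lie left of it at the right.

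Markers of the cells that could carry these genes moved as well, and their part in the results was not tested. The calls below are to be read beside the shares of all mRNA loci called. For adult minus E13.5 these shares were 4.41% (higher) and 9.88% (lower). For adult minus E10.5 they were 5.59% and 8.1%, and for E13.5 minus E10.5 they were 0.851% and 0.247%. The 6 mural cell markers (pericytes and vessel wall) summed to 92.5, 84.4 and 374 FPKM, none at 0. From E13.5 to the adult 3 of the 6 were called higher, Rgs5 (9.81, 47.2 and 240 FPKM), Kcnj8 (1.11, 2.51 and 13.7) and Abcc9 (51.4, 13.8 and 92.5). From E10.5 to the adult 2 were called, Rgs5 and Kcnj8, and Rgs5 was also called higher from E10.5 to E13.5. Pdgfrb was at 8.62, 12.5 and 18.0 FPKM and Notch3 at 4.16, 3.33 and 5.73, while Cspg4 was lowest in the adult (17.4, 5.03 and 4.34). Abcc9 is expressed in cardiomyocytes too, so its call and its part of the sum cannot be assigned to mural cells. The 4 atrial markers, Myl7, Myl4, Sln and Nppa, summed to 6382 FPKM at E10.5, then 6766 at E13.5 and 40.9 in adult ventricle. All 4 were called lower in both comparisons with the adult. The embryonic ventricle is known to express Myl7, Myl4 and Nppa itself, so at E10.5 and E13.5 these genes do not mark the atria alone. Whether any of this RNA came from atrial tissue was not tested. The 4 epicardial markers summed to 109, 105 and 14.8 FPKM, with 3 of 4 (Wt1, Upk3b and Tbx18) called lower in the adult. The 6 fibroblast markers summed to 127, 320 and 436 FPKM, none at 0, and most of the adult sum was Dcn. From E13.5 to the adult 5 of the 6 were lower, with a median difference of -1.24 over the list. Dcn was called higher in the adult than at either embryonic stage (49.5, 75.9 and 351). Tcf21 was called lower (18.3, 22.9 and 1.79), and Lum was called higher from E10.5 to E13.5 (6.31, 66.3 and 23.2). The 5 endothelial markers summed to 260, 185 and 265 FPKM, with Pecam1 reaching the highest level and none called. The 4 macrophage markers summed to 2.80, 13.6 and 70.6 FPKM, and all 4 (Ptprc, Csf1r, Cd68 and Adgre1) were called higher between E10.5 and the adult. Ptprc and Adgre1 were also called higher from E13.5, and Csf1r was called from E10.5 to E13.5. The 3 erythroid markers, the embryonic globin genes Hbb-y, Hbb-bh1 and Hba-x, summed to 6727, 16305 and 3.05 FPKM, and all were called lower in the adult. No adult globin gene was in this list, so it cannot show how much blood RNA the adult library held. Among the cardiomyocyte markers Myl2 was the highest, Nkx2-5 was called lower in the adult in both comparisons (46.8, 61.1 and 9.37), Ryr2 was called higher in the adult than at E13.5 (73.1, 18.8 and 281), and Tnnt2 higher than at E10.5 (626, 1522 and 3148).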

How the data were processed

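FPKM values of 3 ventricle libraries were analysed. The authors aligned paired 100-base reads to mm10 (TopHat2) and ran Cufflinks in 2 ways, guided by UCSC transcripts and not (versions and options not given in the sources used here; the submitters' processing notes also list Bowtie), and deposited 1 FPKM value per merged locus and library, with the exons of the merged transcripts. The handling of multiply mapped fragments is not stated. A locus counted as mRNA where 1 of its transcripts was classed by the deposited annotation as identical to a RefSeq NM entry, and the mRNA locus of each gene symbol was used (Emr1 for Adgre1). Capza1 is joined with Mov10 in 1 locus. Stage differences were taken on log2(FPKM + 1), a scale that compresses differences of low genes, and were called at 2 or more. The deposited table gives no counts per locus, so fragment numbers were estimated from the commonest step of FPKM × kb among unspliced loci of 1 transcript. They are approximate, least certain in the adult, and no interval is given.

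All members are named, together with list genes that were called or highest in their list (the nonmuscle myosins and the serum response factor genes are given in full, and Smtn, Ppp1r14a, Cfl2, Pdgfrb, Notch3 and Cspg4 were added after their values were seen), and for 5 members the 3 loci (not joined, at 10 FPKM or more in 1 library, none at 0) at the smallest Euclidean distance of the first 2 stage differences. Members and lists were chosen with earlier results of these data known. Coding identities come from global alignments, and coordinates are those of the deposited annotation (mm10, the same assembly as GRCm38). Calls and the copy search were run on simulated data with planted changes beyond the limit and planted copies. That checks the code and says nothing about the spread between animals. Alternatives changed the scaling, the pseudocount, the limit, the filter and the share. Python 3.11.15, numpy 2.4.6, pandas 2.3.3, numba 0.67.0 and matplotlib 3.10.9 were used.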

Additional observations from a re-analysis of the deposited data

How the results depend on the processing

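No paired analysis was possible because there is only 1 library for each stage. For the same reason no library could be left out, and no setting says how far a second animal or library would differ. Some low values rest on few fragments, as for Myh11 and Actg2 at E10.5 (about 10 and 6) and Actg2 in the adult (about 25). Of 186 alternatives to the 27 stage differences of the members, 12 moved a value by more than 1.5-fold. A sign turned in 5, for Actc1 and Actg1 only. The limit and the filter do not enter a difference, so those settings could not move it. Only the scalings and pseudocounts could, and only the scalings could turn a sign, so both counts are low partly by construction. Acta2, Tagln and Cnn1 stayed lower in the adult than at E13.5, past the limit, with both other scalings. With median-of-ratios scaling, for adult minus E13.5, 2 other smooth muscle genes were called higher (main 0), 2 paralogs lower (main 4), and of the filament turnover genes 2 higher (main 1) and 1 lower (main 4). For adult minus E10.5, 1 turnover gene was lower (main 2). With equal mRNA sums (globin and mitochondrial loci left out), 1 other smooth muscle gene was higher and 2 paralogs lower for adult minus E13.5. With a pseudocount of 0.1, 2 members were called higher for E13.5 minus E10.5 (main 1), 4 lower for adult minus E13.5 (main 3, Actg2 added), and other smooth muscle genes called higher were 1, 2 and 2 in the 3 comparisons (main 0, 0 and 1). With a pseudocount of 5, 0 members were called higher for E13.5 minus E10.5 and 0 for adult minus E13.5. Nonmuscle myosins called higher were then 0 in both comparisons with the adult (main 1). Other smooth muscle genes called higher were 0 for adult minus E10.5. With a limit of 1 on the log2 scale, 6 and 5 members were lower in the adult than at E13.5 and E10.5 (main 3 and 2), other smooth muscle genes called higher were 2, 4 and 2, and 7 were lower for adult minus E13.5. With that limit, serum response factor genes called lower were 2, 1 and 1 and 1 was higher for adult minus E13.5, and turnover genes called higher were 3, 4 and 5, with 8 and 6 lower in the 2 adult comparisons. Keeping loci at 10 FPKM or more left 0 members called higher for E13.5 minus E10.5. It also left 0 nonmuscle myosins called higher in both adult comparisons, as Myh14 dropped out, while Myh10 was still called lower. All mRNA loci called higher and lower were 331 and 128, 977 and 2039, and 1225 and 1696 with a pseudocount of 0.1, 38 and 10, 219 and 527, and 270 and 385 with 5, and 740 and 609, 1637 and 4029, and 1856 and 3430 with the limit of 1. Multiplying FPKM by exon length, which weights the long assembled Actb transcripts, gave shares at E10.5 of 27.1% for Actc1, 1.66% for Acta1, 0.00219% for Actg2 and 47.5% for Actb. At E13.5 these were 24.96%, 0.948%, 0.0446% and 57.5%, and in the adult 40.7%, 1.32%, 0.0162% and 51.9%, with 5.10% for Acta2 and 0.956% for Actg1. Counting the chromosome 4 locus to Actg1, an alternative chosen after seeing the data, gave it 3.10%, 3.47% and 1.26% of the actins. The largest locus of each name was the only one, so that choice altered nothing.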
